A study of Mus musculus with 10 samples.

Results

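Interferon-stimulated genes were followed through the transcriptomes of mouse hematopoietic stem cells (HSCs) as a list of 36 genes, chosen by symbol as genes induced by type I interferon and including those that stem cells express without infection. All 36 were found by symbol among the 52096 genes of the deposited table, and 33 of them were among the 13041 genes expressed highly enough to be tested. Isg15, which encodes a ubiquitin-like protein, had the largest difference in level between the groups, at 52.0% of the FL mean in HET, and it did not pass the test across all genes (limma adjusted p = 0.472). No gene of the list did. The libraries of a group differed widely. HET 1, 1 library of the HET group, held the highest value of 28 of the 33 tested genes, and of 37.1% of all tested genes. After scaling to the median gene and without HET 1 and FL 5, a combination chosen after seeing the data that leaves out the libraries in which Isg15 crosses between the groups, Isg15 fell and the glycoprotein gene Lgals3bp rose. Bst2 and Xaf1 of the list also rose in that fit. There 25.6% of all tested genes passed, a larger share than that of the list. In the same libraries without the scaling, Isg15 still fell. Lgals3bp, Bst2 and Xaf1 did not pass there, with log2 fold changes of 0.22, -0.04 and 0.02.

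Type I interferons bind a receptor made of IFNAR1 and IFNAR2, which activates the kinases JAK1 and TYK2. These activate the complex of STAT2 and IRF9, which binds a DNA element of the promoter, the interferon-stimulated response element (ISRE). The induced proteins sense, cut, trap or tag viral RNA and protein, and some limit the response itself. Stem cells are known to keep a subset of these genes on without interferon, and HSCs respond to interferon by leaving quiescence.

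The comparison was between HSCs of mice labelled Nup214fl/+ (FL, 5 libraries) and of mice labelled Nup214fl/+,Tie2-Cre (HET, 5 libraries), so all mice carried 1 floxed allele of Nup214, a nucleoporin gene, and HET mice also carried Cre. The Tie2 promoter drives Cre in endothelium and in blood cells from early development on. No group had Cre without the floxed allele, so deletion of 1 allele and Cre itself cannot be told apart. The sort took CD48-CD150+ cells within LSK (lineage-negative, Sca-1+, Kit+) from bone marrow, and the title of the series concerns leukemia stem cells and ferroptosis. The labels used here give no age and do not say whether each library came from its own mouse, so the spread behind each p-value is that of the libraries and may be technical.

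Nup214 checks the labels. It held 65.8, 55.3, 52.2, 43.9 and 30.0 FPKM (mapped fragments scaled for transcript length and library size) in FL 1 to FL 5, and 31.2, 9.74, 17.4, 16.3 and 9.13 FPKM in HET 1 to HET 5. HET 1 thus lay above FL 5, against the order of the other libraries (exact two-sided permutation p = 0.0159 over all assignments, log2 fold change -1.59, limma adjusted p = 0.472 across all genes). These 2 libraries also got the lowest array quality weights, 0.149 for HET 1 and 0.236 for FL 5, against 0.785 to 3.38 for the others, so results below are also given without both. Whether the labels of these 2 libraries are correct was not tested, and every FL and HET mean below takes them as labelled. HSC markers were present (summed Procr, Slamf1, Mecom, Hlf, Kit and Ly6a of 167.2 to 270.0 FPKM in FL and 189.2 to 371.4 in HET), but so were all 7 B and plasma cell markers (2618 to 10898 and 8062 to 101892 FPKM). Values are from bulk cells, so fewer cells of a type and less RNA per cell cannot be told apart.

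The DNA of the promoters was read for the ISRE, and a match was found for some genes but not for most of those with a window. RefSeq promoter windows (GRCm38.p6, the assembly of mm10) were matched for 25 of the 36 genes, and the 250 bases before each start were searched on both strands for the ISRE core, a pair of GAAA in tandem with any 2 bases between them. It was found for 10 of the 25, or 40.0%, against 3.46% of all 27025 genes with a window. The stretches below are shown because they carry the matches in genes whose levels follow, with the matching bases in capitals, written 5′ to 3′ on the strand of the gene, so that TTTC repeats are matches on the other strand.
Isg15 (chr4:156200863-156200908, minus strand): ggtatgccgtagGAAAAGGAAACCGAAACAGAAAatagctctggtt
Bst2 (chr8:71537575-71537614, minus strand): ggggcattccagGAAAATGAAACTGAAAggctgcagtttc
Oas1a (chr5:120907526-120907557, minus strand): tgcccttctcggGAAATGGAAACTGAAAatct
Oas3 (chr5:120777713-120777746, minus strand): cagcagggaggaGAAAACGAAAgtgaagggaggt
Ifitm2 (chr7:140955986-140956019, minus strand): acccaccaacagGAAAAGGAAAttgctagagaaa
Ifit1 (chr19:34640773-34640825, plus strand): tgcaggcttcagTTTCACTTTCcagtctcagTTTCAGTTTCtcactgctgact
Ifit3 (chr19:34583361-34583428, plus strand): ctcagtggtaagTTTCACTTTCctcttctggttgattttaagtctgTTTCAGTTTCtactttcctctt
Stat2 (chr10:128270264-128270297, plus strand): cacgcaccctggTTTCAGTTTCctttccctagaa
Rsad2 (chr12:26456551-26456584, minus strand): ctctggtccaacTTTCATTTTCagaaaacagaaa
Trim30a (chr7:104465208-104465241, minus strand): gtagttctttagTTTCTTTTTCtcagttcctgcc

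Isg15 held 3 overlapping matches between 78 and 57 bases before its start, Oas1a and Bst2 2 overlapping ones each, and Ifit1 and Ifit3 2 separate ones each.

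A match is a description of the letters, not a site shown to be bound. No entry was matched for Ifi27, Ifi27l2a, Usp18, Dhx58, Rtp4, Parp14, Zbp1, Oas2, Ifi204, Mx1 and Mx2.

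Levels spanned more than 3 orders of magnitude, from a mean over the 10 libraries of 0.488 FPKM for Mx2 to 1413 FPKM for Ifitm2. The median of the 36 means was 9.08 FPKM. The 3 IFITM genes stood at the top. Mx1, Mx2, Ifit1 and Ifit3, which are strongly induced by interferon in many cells, were among the lowest, with Ifi204 and Oas2. FPKM is scaled per length, so these levels can be set beside each other, but the reads of near-identical relatives (the IFITM genes, Ifit1 and Ifit3 with their copies, Oas1a with Oas1g) may have been split in a way not given in the sources used here.

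**Figure D1:**
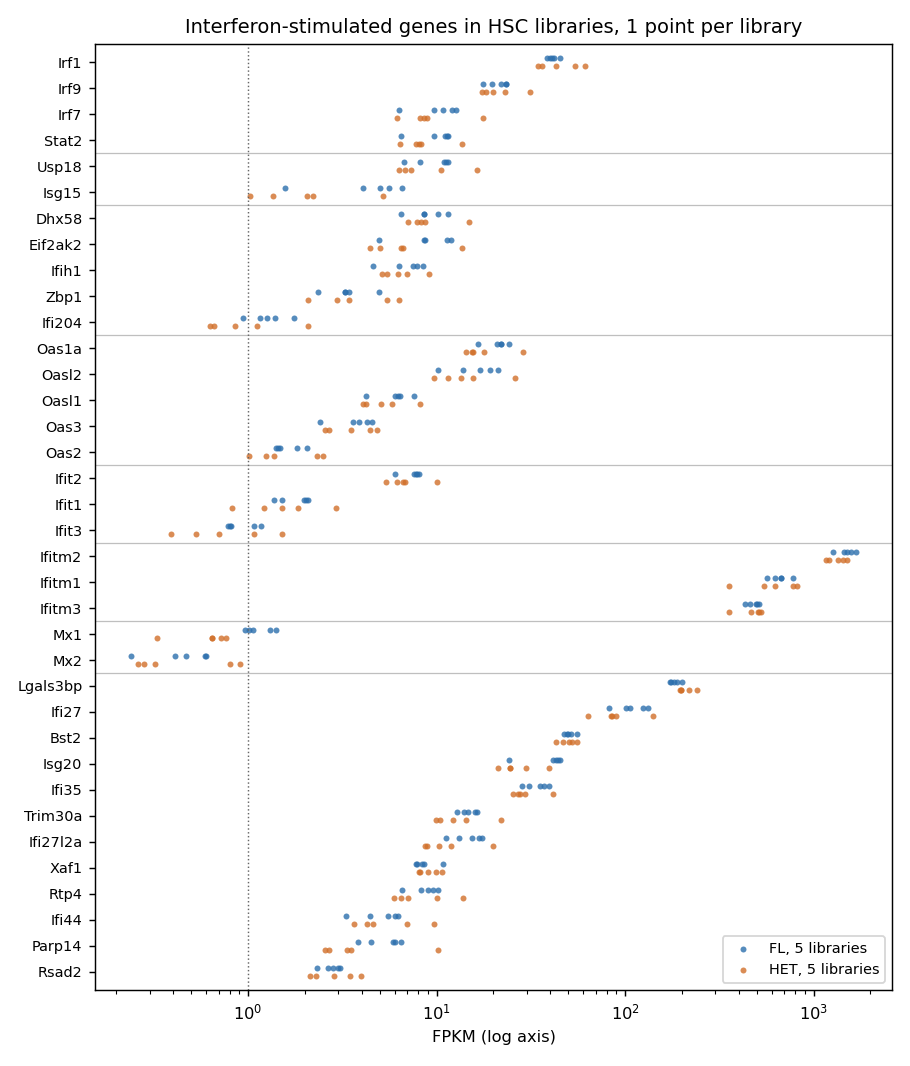
FPKM of the 36 interferon-stimulated genes on a log axis, 1 point per library, FL in blue and HET in orange, grouped by role in the order signalling, ISG15 conjugation, sensors, oligoadenylate synthetases, IFIT, IFITM, MX and other effectors. The dotted line marks 1 FPKM, the 3 IFITM genes lie between 355.1 and 1684 FPKM, and only in Mx1 do the groups not overlap.

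The transcription factors that carry the signal were all expressed. Irf1, a factor gene induced early by interferon, held 38.7, 41.1, 42.1, 39.8 and 45.4 FPKM in FL 1 to FL 5 and 61.6, 42.8, 36.1, 34.7 and 54.5 FPKM in HET 1 to HET 5. HET libraries lay on both sides of the FL range, and the spread was wider in HET (SD 11.7 FPKM, n = 5) than in FL (SD 2.57, n = 5). Its log2 fold change was 0.11 (SE 0.16, limma adjusted p = 0.720), and it was -0.004 with array quality weights. Stat2, of the ISRE-binding complex, held 11.3, 11.03, 11.6, 9.69 and 6.46 FPKM in FL and 13.6, 6.38, 8.10, 7.82 and 8.26 FPKM in HET. FL 5 lay apart at the low end of its group and HET 1 at the high end of its own, and the groups overlapped (log2 fold change -0.18, SE 0.21, limma adjusted p = 0.671). Irf9, the DNA-binding partner, averaged 21.2 ± 2.52 FPKM (FL) and 21.96 ± 5.58 FPKM (HET), each as mean ± SD with n = 5, as are all means below. Irf7, the factor that amplifies interferon production, held 10.3 ± 2.49 and 9.89 ± 4.51 FPKM.

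Isg15 and Usp18 belong to 1 system, since USP18 removes ISG15 from its targets and also damps the interferon receptor. Isg15 (ENSMUSG00000035692, chromosome 4 from 156199424 to 156200818 in GRCm38, minus strand) held 5.03, 5.61, 6.55, 4.07 and 1.57 FPKM in FL 1 to FL 5 and 5.22, 1.02, 2.22, 2.06 and 1.35 FPKM in HET 1 to HET 5. Of the FL libraries only FL 5 lay among the low values, and of the HET libraries only HET 1 lay among the high ones, the same 2 libraries that crossed for Nup214. The means were 4.57 ± 1.90 and 2.37 ± 1.67 FPKM, with a log2 fold change of -0.75 (SE 0.34, limma adjusted p = 0.472), or -0.58 relative to the median of all tested genes. Usp18 showed this order only in part, with HET 1 above all FL libraries and HET 5 above FL 4. Usp18 held 11.5, 11.2, 11.01, 8.15 and 6.75 FPKM in FL and 16.3, 6.28, 7.35, 6.83 and 10.6 FPKM in HET, with means of 9.73 ± 2.14 and 9.47 ± 4.17 FPKM. Its log2 fold change was -0.09 (SE 0.25, limma adjusted p = 0.860) and turned to 0.09 when columns were scaled by median ratios. With array quality weights it was -0.46 (limma adjusted p = 0.0241), in a fit where 52.7% of all tested genes passed.

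**Figure D2:**
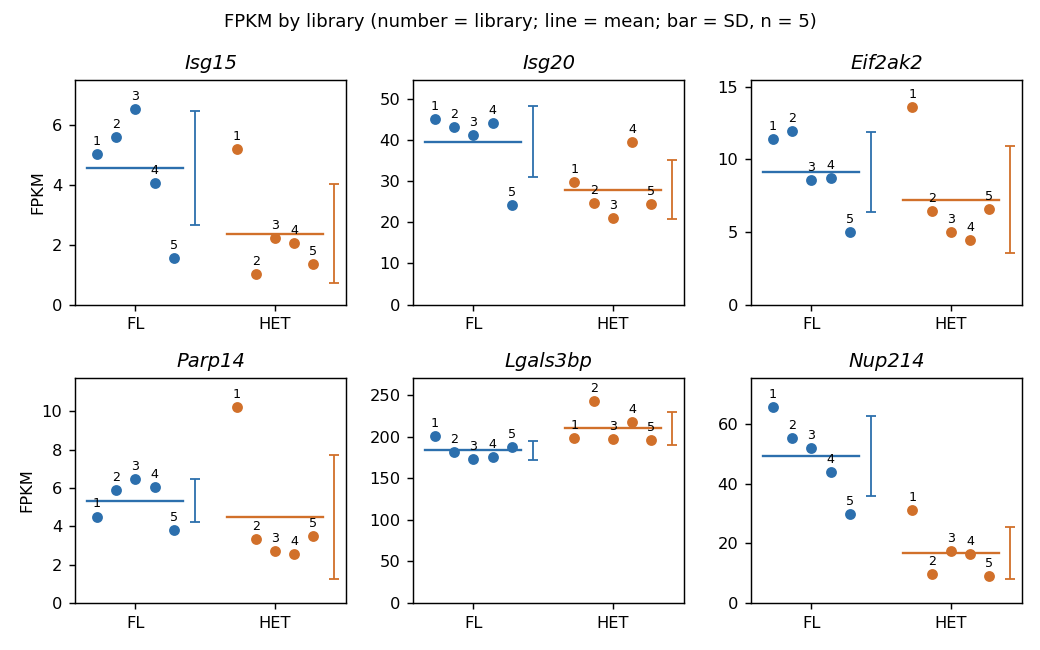
FPKM of 5 interferon-stimulated genes and of Nup214 in each library, numbered 1 to 5 within FL and HET, with the mean as a line and the SD as a bar (n = 5). FL 5 and HET 1 cross between the groups for Isg15 (1.57 and 5.22 FPKM) as they do for Nup214 (30.0 and 31.2 FPKM), while for Isg20 FL 5 lies with HET but HET 1 does not lie with FL.

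Among the sensors of foreign nucleic acid, Dhx58, a regulator of the RNA helicase sensors, had the highest mean. It held 10.2, 8.57, 11.5, 8.59 and 6.51 FPKM in FL and 14.9, 7.02, 8.65, 7.88 and 8.29 FPKM in HET. All HET values but the one of HET 1 lay within the FL range (log2 fold change 0.01, SE 0.21, limma adjusted p = 0.977), and the sign turned without HET 1 (-0.15). Eif2ak2, the RNA-activated kinase that stops translation, held 11.4, 11.9, 8.55, 8.72 and 4.97 FPKM in FL and 13.6, 6.46, 4.99, 4.45 and 6.60 FPKM in HET. The HET libraries other than HET 1 lay below all FL libraries but FL 5, while HET 1 lay above every other library (log2 fold change -0.34, SE 0.28, limma adjusted p = 0.568). Ifih1, which encodes the sensor MDA5, averaged 6.96 ± 1.55 FPKM (FL) and 6.57 ± 1.56 (HET). Zbp1, a sensor of Z-form nucleic acid, held 3.45 ± 0.931 and 4.05 ± 1.79 FPKM. Ifi204, a DNA-binding member of the Ifi200 family, was low at 1.298 ± 0.302 and 1.07 ± 0.603 FPKM.

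The oligoadenylate synthetase family is named for enzymes that make the messenger that activates an RNA-cutting enzyme, and its genes in the list lie on chromosome 5. Oas1a was the highest of them and held 22.02, 22.02, 24.3, 20.8 and 16.6 FPKM in FL and 28.6, 14.3, 15.4, 15.7 and 17.9 FPKM in HET. HET 1 was the highest of all libraries and the other 4 HET libraries lay below FL 1 to FL 4 (log2 fold change -0.23, SE 0.19, limma adjusted p = 0.565). Oasl2 averaged 16.3 ± 4.31 FPKM (FL) and 15.3 ± 6.47 (HET), Oasl1 held 6.09 ± 1.21 and 5.45 ± 1.64, and Oas3 3.74 ± 0.829 and 3.60 ± 1.004. Oas2 was the lowest, at 1.64 ± 0.290 and 1.68 ± 0.669 FPKM. All 5 had log2 fold changes below 0 and none passed. Under median-ratio scaling 4 of the 5 were above 0.

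The IFIT proteins bind viral RNA ends, and their genes lie on chromosome 19. Ifit2 held 8.08, 7.86, 7.77, 7.60 and 6.01 FPKM in FL and 10, 6.17, 6.82, 5.42 and 6.65 FPKM in HET. FL 1 to FL 4 differed by less than 0.5 FPKM and FL 5 lay apart below them, while HET 1 lay above every other library (log2 fold change -0.10, SE 0.16, limma adjusted p = 0.762, and 0.08 under median-ratio scaling). Ifit1 held 1.80 ± 0.328 and 1.66 ± 0.792 FPKM. Ifit3 held 0.926 ± 0.181 and 0.842 ± 0.457 FPKM and was below the filter for testing.

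The IFITM proteins sit in membranes and block virus entry, and their genes lie on chromosome 7 between 140954837 and 141010770. Ifitm2 held 1511, 1578, 1448, 1684 and 1270 FPKM in FL and 1498, 1426, 1356, 1158 and 1202 FPKM in HET. All HET values were below the FL median, and the groups overlapped (log2 fold change -0.17, SE 0.12, limma adjusted p = 0.522). Relative to the median of all tested genes the difference was -0.01. Ifitm1 averaged 661.8 ± 78.0 FPKM (FL) and 624.8 ± 189.0 (HET), where HET 4 was the lowest library at 355.1 FPKM. Ifitm3 held 481.1 ± 32.4 and 473.3 ± 69.0 FPKM, again lowest in HET 4, at 357.4 FPKM. HET 4 was thus the lowest library for all 3 IFITM genes, as it was for 24.7% of all tested genes.

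The MX genes encode GTPases that bind viral ribonucleoproteins, and both were below the filter. Mx1, named here after its values were seen, held 1.31, 1.01, 0.96, 1.41 and 1.06 FPKM in FL and 0.64, 0.33, 0.72, 0.64 and 0.76 FPKM in HET. It was the only gene of the 36 whose groups did not overlap, at levels near the lower limit of the table. None of the 33 tested genes had groups without overlap, where 0.506% of all tested genes did. In a fit without the filter the log2 fold change of Mx1 was -0.41 (SE 0.15, limma adjusted p = 0.862). Mx2 held 0.462 ± 0.148 and 0.514 ± 0.315 FPKM.

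Of the other effectors, Lgals3bp, which encodes a secreted glycoprotein, was the highest and went the other way. It held 200.2, 181.6, 172.5, 175.2 and 187.8 FPKM in FL and 198.7, 242.2, 196.9, 217.0 and 195.9 FPKM in HET. Every HET value was above the FL median, and only FL 1 lay among them (log2 fold change 0.19, SE 0.10, limma adjusted p = 0.472). Isg20, an exonuclease gene (ENSMUSG00000039236, chromosome 7 from 78913424 to 78920396), held 45.2, 43.0, 41.3, 44.2 and 24.3 FPKM in FL and 29.8, 24.6, 21.1, 39.5 and 24.4 FPKM in HET. FL 1 to FL 4 lay above all HET libraries, and FL 5 among the lowest (log2 fold change -0.49, SE 0.20, limma adjusted p = 0.472). Unlike most of the list, Isg20 did not have its highest value in HET 1. Parp14, a mono-ADP-ribosyltransferase gene, held 4.51, 5.90, 6.46, 6.03 and 3.81 FPKM in FL and 10.2, 3.34, 2.69, 2.57 and 3.51 FPKM in HET. The 4 HET libraries other than HET 1 lay below all FL libraries, and HET 1 far above them (log2 fold change -0.35, SE 0.29, limma adjusted p = 0.577).

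The remaining effectors had overlapping groups. Ifi27 and Ifi27l2a, of a family of mitochondrial and nuclear membrane proteins, averaged 109.3 ± 19.9 and 14.8 ± 2.55 FPKM across the FL libraries, and 92.8 ± 28.6 and 11.97 ± 4.67 across those of HET, where both had their highest value in HET 1. Bst2, the tether that holds budding virus at the surface, was the most even gene of this group at 50.5 ± 3.08 and 49.6 ± 4.82 FPKM. Ifi35 held 34.4 ± 4.59 and 30.3 ± 6.53 FPKM, and Trim30a 14.8 ± 1.46 and 13.8 ± 4.85. Xaf1, which promotes apoptosis, held 8.69 ± 1.25 and 9.18 ± 1.12 FPKM, and Rtp4 8.70 ± 1.38 and 8.65 ± 3.27. Ifi44 held 5.12 ± 1.22 and 5.84 ± 2.48 FPKM, and Rsad2, the antiviral enzyme viperin, 2.77 ± 0.301 and 2.94 ± 0.785.

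Across the list, the fitted value was lower in HET for 25 of the 33 tested genes and higher for 8, and the median log2 fold change was -0.10. Over all tested genes 77.3% had a lower fitted value, with a median of -0.17. None of the 33 passed at an adjusted p of 0.05 (limma), where 0% of all 13041 tested genes did. At an unadjusted p under 0.05 there were 2, Isg20 and Isg15, both lower, which is 2 of 33 against 10.4% of all tested genes. When columns were scaled so that the median gene did not differ (median-ratio scaling, which moved the median of all genes to 0.01), 8 of the 33 were lower and 25 higher, against 49% lower of all tested genes, and the median of the list was 0.08. The direction of the list as a whole thus depends on the scaling. Isg15, Isg20, Eif2ak2 and Parp14 stayed lower after it, with log2 fold changes of -0.61, -0.30, -0.17 and -0.19, and Lgals3bp stayed higher at 0.39. None of the 33 passed in the scaled fit either, where 0.00767% of all genes did.

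The 9 tested genes with an ISRE core in the searched window ran from -0.75 for Isg15 to 0.05 for Rsad2, with a median of -0.14. The 15 tested genes with a window and no match ran from -0.49 for Isg20 to 0.19 for Lgals3bp, with a median of -0.10. The 2 ranges overlap over most of their length.

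**Figure D3:**
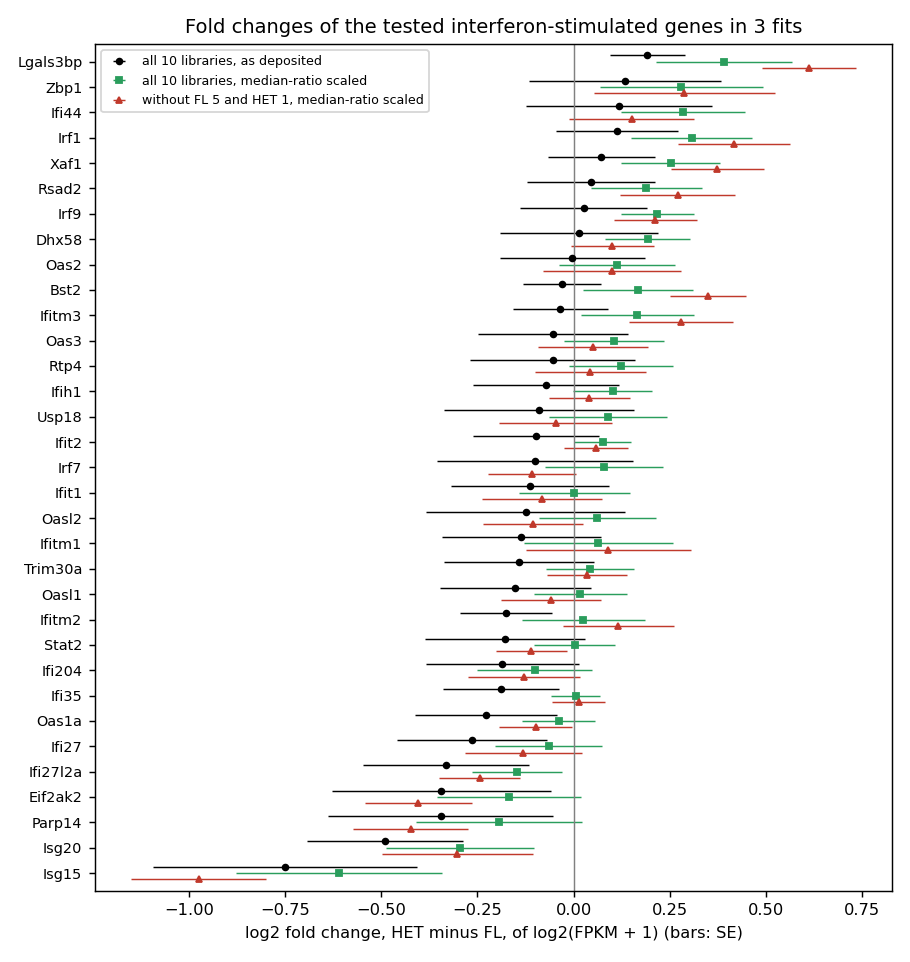
Log2 fold changes (HET minus FL) of the 33 tested genes with their standard errors, in 3 fits: all 10 libraries as deposited (black), all 10 after median-ratio scaling (green), and without FL 5 and HET 1 after scaling (red). Isg15 is the lowest in each (-0.75, -0.61 and -0.97) and Lgals3bp the highest (0.19, 0.39 and 0.61), while most others lie within 0.4 of 0.

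Single libraries stood apart for these genes. HET 1 was the highest library for 28 of the 33 tested genes, or 84.8%, against 37.1% of all tested genes. HET 4 was the lowest for 13 and HET 2 for 9, or 39.4% and 27.3%, against 24.7% and 17.1% of all tested genes. The median deviation from the mean of each gene was 0.52 on the log2 scale in HET 1 for the list and 0.30 for all tested genes. After median-ratio scaling it was 0.18 in HET 1 and 0.14 in HET 5 for the list, and between -0.09 and 0.06 in the other 8 libraries. In both of these libraries 27 of the 33 genes lay above their own mean after scaling, and HET 1 or HET 5 was the highest library for 13 and 10 of them, against 10.3% and 11.5% of all tested genes. HET 5 stood out only after scaling, since as deposited its median deviation was -0.09 for the list and -0.20 for all tested genes. As deposited, the highest median deviation of the list (HET 1) and the lowest (HET 2, at -0.32) were thus both in HET libraries.

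**Figure D4:**
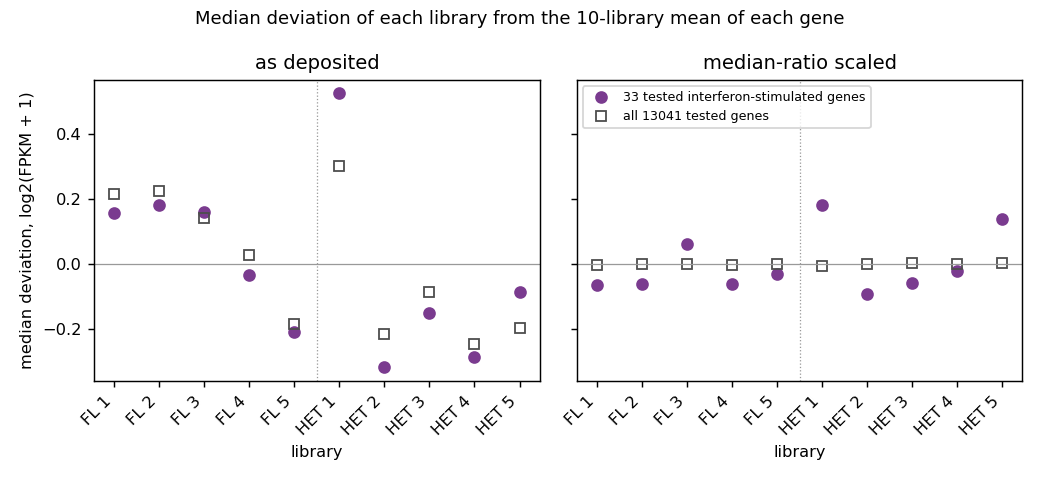
Median deviation of each library from the 10-library mean of each gene, in log2(FPKM + 1), for the 33 tested interferon-stimulated genes (purple points) and all 13041 tested genes (open squares), as deposited (left) and after median-ratio scaling (right). After scaling the genes of the list stand at 0.18 in HET 1 and 0.14 in HET 5.

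Genes of the list varied together across the 10 libraries once group means were removed. After scaling, the median Pearson r over the 528 pairs of the 33 tested genes was 0.24, against -0.004 for pairs of a listed gene with any other tested gene. This is a description over 10 libraries that share their depth and composition, and as deposited the 2 values were 0.67 and 0.52. The genes that followed the others most closely after scaling were Ifi44 (median r with the rest of the list 0.60), Ifi27l2a (0.59), Usp18 (0.58), Rtp4 (0.54) and Ifit1 (0.48). Isg15 was at 0.15. After scaling, Ifitm2 (-0.39) and Lgals3bp (-0.38) ran against the rest. Ifitm3 (-0.20), Bst2 (-0.14), Xaf1 (-0.10), Ifitm1 (-0.09), Isg20 (-0.09) and Oasl1 (-0.05) did not follow it. The 3 IFITM genes, Lgals3bp, Bst2 and Isg20 are among the 8 genes of the list with the highest means, and the other 2 of those, Ifi27 and Irf1, were at 0.31 and 0.24. These signs depend on the scaling. As deposited, only Lgals3bp was below 0, at -0.40. Ifitm2 was at 0.45 there, Ifitm3 at 0.51, Ifitm1 at 0.44, Xaf1 at 0.40, Isg20 at 0.26, Bst2 at 0.22 and Oasl1 at 0.65.

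**Figure D5:**
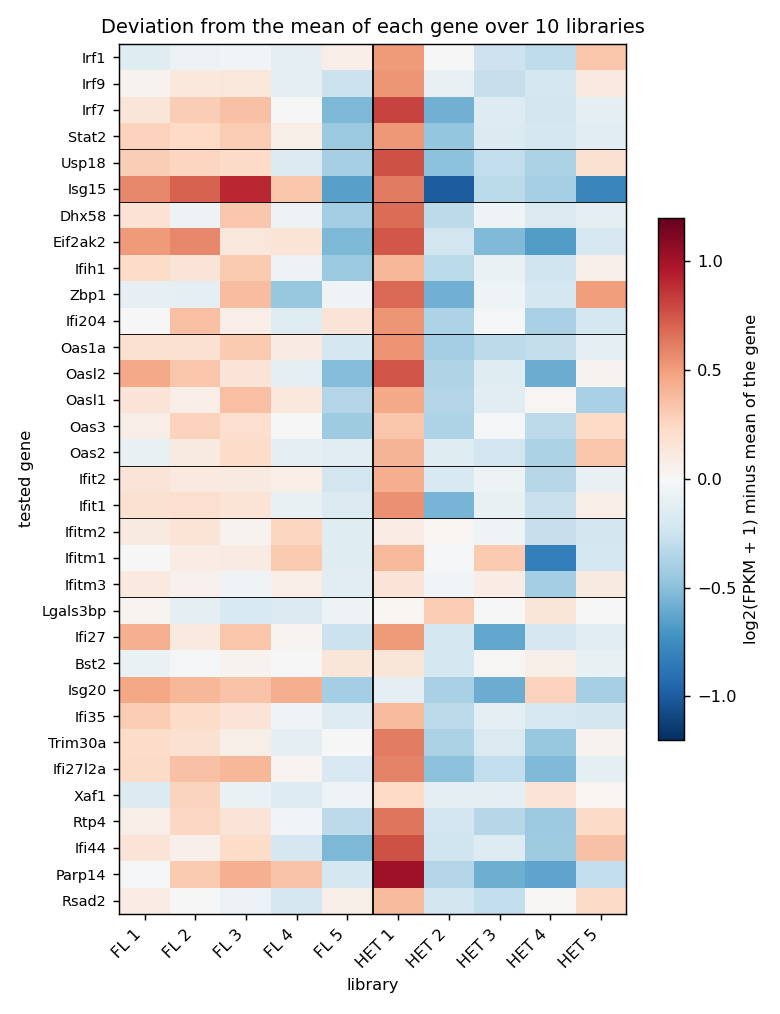
Deviation of log2(FPKM + 1) from the mean of each gene over 10 libraries, for the 33 tested genes (rows, grouped by role) and the libraries FL 1 to FL 5 and HET 1 to HET 5 (columns), red above and blue below. The column of HET 1 is red for nearly all genes, with 28 of 33 at their highest there, and Isg15 is low in FL 5, HET 2 and HET 5.

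Markers of other cells also moved between these libraries. HET 1 held the highest summed level of 6 monocyte and macrophage markers, 257.1 FPKM as deposited. FL ran from 146.3 to 240.9 FPKM and HET from 65.1 upward, with all 6 markers above 0 in every library. Ly86, C1qa and Adgre1 were highest in HET 1, but Csf1r and Ms4a7 in FL 2 and C1qb in FL 5. As deposited, HET 1 was also the highest library for 37.1% of all tested genes. For 5 markers of plasmacytoid dendritic cells, the main makers of type I interferon, it held 10.8 FPKM, of which 6.73 were Cox6a2 (FL 5.30 to 9.15, HET from 3.87), with 4 of 5 markers above 0 in every library and Klk1 listed at 0 in 4 of 10, HET 1 included. Siglech, the defining surface marker of these cells, was not high in HET 1, at 1.56 FPKM against 1.37 to 2.89 in FL. Its sum of 6 NK and T cell markers, 726.6 FPKM, was mostly Nkg7 and close to the 722.7 FPKM of FL 1. The NK receptor gene Ncr1 was at 5.04 FPKM in HET 1, 8.97 in HET 3 and 5.76 in HET 5, against 0.67 to 1.55 in FL. Klrb1c was at 5.37, 6.16 and 5.29 FPKM there, against 1.29 to 2.33, and Cd3d at 2.01, 1.45 and 1.14, against 0.29 to 0.73. In HET 2 and HET 4, Ncr1 was at 0.61 and 1.91 FPKM and Klrb1c at 1.39 and 2.17. The rest of the 6 did not share this. In HET 1, HET 3 and HET 5, Gzma was at 2.24, 0.11 and 0.70 FPKM (FL 0.43 to 1.70). Cd3e was within its FL range there, and Nkg7 was at 359.7 FPKM in HET 5 (FL 399.2 to 718.2). HET 5 held the highest sum of B and plasma cell markers, 101892 FPKM, and of 6 neutrophil markers, 735.2 FPKM. HET 1 and HET 5 also held the highest sums of the HSC markers (355.4 and 371.4 FPKM, the others at most 270.0) and the lowest of 4 erythroid markers (114.3 and 68.4 FPKM, the others 131.6 to 326.1). In HET 5 the HSC sum held 179.0 FPKM of Ly6a, against 42.1 to 69.1 in FL. Ly6a is also among the further interferon-stimulated genes read below. Kit (161.0 FPKM), Hlf (13.98) and Mecom (7.60) were within the FL range in HET 5, and Procr (5.03) and Slamf1 (4.77) just above it. The sum of 4 megakaryocyte markers did not overlap between the groups, at 1765 to 2338 FPKM in FL and 953.9 to 1738 FPKM in HET. That sum was mostly Pf4, which was lower in all 5 HET libraries (1580 to 2115 FPKM in FL, 816.4 to 1508 in HET). Groups without overlap were found for 0.506% of all tested genes. Itga2b, Gp9 and Ppbp had overlapping groups. The part of these cells in the levels of the interferon-stimulated genes was not tested.

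Without FL 5 and HET 1, 13 of the 33 tested genes passed, all lower in HET, which is 39.4% of them against 45.7% of all tested genes (limma adjusted p under 0.05). Since these 2 libraries are those that crossed for Nup214, the calls describe the other 8 libraries. The 13 included Isg15 (log2 fold change -1.26, SE 0.19, adjusted p = 0.000618), Parp14 (-0.74, adjusted p = 0.00249), Eif2ak2 (-0.75, adjusted p = 0.00345), Oas1a (-0.47, adjusted p = 0.00342), Isg20 (-0.68, adjusted p = 0.00705) and Stat2 (-0.46, adjusted p = 0.00753). The others were Ifi27l2a, Ifi27, Oasl2, Irf7, Oasl1, Ifi35 and Ifit2. All 13 lay in a fit where 42.2% of all tested genes were called lower. With array quality weights 18 of 33 passed, 17 of them lower, against 52.7% of all tested genes. With median-ratio scaling and without both libraries, a combination chosen after seeing the data, 4 of 33 passed, or 12.1%, against 25.6% of all tested genes (12.3% higher and 13.3% lower). Isg15 was the 1 that fell (-0.97, SE 0.18, limma adjusted p = 0.00390), in a fit that leaves out the 2 libraries that cross for it. Lgals3bp (0.61, SE 0.12, limma adjusted p = 0.00630), Bst2 (0.35, SE 0.10, adjusted p = 0.0292) and Xaf1 (0.37, SE 0.12, adjusted p = 0.0494) rose in that fit, the latter 2 named after their values were seen. These rises depend on the scaling. In the same 8 libraries as deposited, Lgals3bp was at 0.22 (limma adjusted p = 0.107), Bst2 at -0.04 (0.743) and Xaf1 at 0.02 (0.908). Scaling with weights gave 3 of 33, Isg15 lower and Lgals3bp and Xaf1 higher, against 19.2% of all tested genes. With only 1 of the 2 libraries left out none of the 33 passed (3.14% of all tested genes without FL 5, 0.00767% without HET 1), and Isg15 had limma adjusted p of 0.0745 without FL 5 and 0.0663 without HET 1. Over all alternatives the limma adjusted p ran from 0.000618 to 0.862 for Isg15, from 0.00705 to 0.862 for Isg20, from 0.00630 to 0.862 for Lgals3bp, from 0.00249 to 0.862 for Parp14 and from 0.00345 to 0.862 for Eif2ak2.

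Other genes of the pathway were read from lists of receptors, factors, inducers and further interferon-stimulated genes. Of their 97 genes 70 were tested. None passed in the full set of libraries (smallest limma adjusted p = 0.472), and 3 of the 70 had an unadjusted p under 0.05 (Irf8, Ptpn11 and Parp12), against 10.4% of all tested genes. The receptor was present, with Ifnar1 at 19.8 ± 2.77 FPKM (FL) and 20.3 ± 5.43 (HET). Ifnar2 held 85.0, 81.0, 75.3, 73.8 and 65.5 FPKM in FL and 95.8, 65.4, 68.04, 59.6 and 60.6 FPKM in HET, where it had the smallest p of the 7 receptor and kinase genes, 5 of them lower (log2 fold change -0.14, SE 0.14, limma adjusted p = 0.624, and 0.06 under median-ratio scaling).

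Of 10 further factors and inhibitors 9 were lower. Irf8, a factor of myeloid and dendritic cell development, held 168.0, 201.5, 150.1, 150.1 and 122.7 FPKM in FL and 178.1, 93.7, 101.7, 91.7 and 81.1 FPKM in HET. The 4 HET libraries other than HET 1 lay below every FL library (log2 fold change -0.57, SE 0.20, limma adjusted p = 0.472). Without FL 5 and HET 1 it fell, by 0.85 on the log2 scale as deposited and by 0.46 after scaling (limma adjusted p = 0.000430 and 0.0120). Both fits leave out its lowest FL and its highest HET library. In the scaled fit 3 of the 10 passed, all lower, where 13.3% of all tested genes were called lower.

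Interferon genes themselves were near 0. None of the 20 ligand genes reached the filter, the highest single value was 0.80 FPKM, and the highest mean was 0.190 FPKM, for Ifna6. Ifnb1 was listed at 0 in 8 of the 10 libraries, with 0.24 FPKM in HET 1 and 0.33 in HET 3. Of 10 tested genes that lead to interferon production, Ikbke, a kinase that activates IRF factors, had the smallest p, at 11.9, 10.6, 11.4, 10.5 and 14.3 FPKM in FL and 15.03, 10.8, 15.6, 14.1 and 17.5 FPKM in HET. All HET values but that of HET 2 lay above those of FL 1 to FL 4 (log2 fold change 0.29, SE 0.15, limma adjusted p = 0.473). After scaling and without FL 5 and HET 1 it rose (0.71, limma adjusted p = 0.00393), as did 1 other gene of the 10, where 12.3% of all tested genes were called higher. As deposited and without both libraries, Ikbke was at 0.34 (limma adjusted p = 0.0635).

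Genes of antigen processing and of the response to interferon gamma had 8 of 19 higher and 11 lower. B2m, the light chain of MHC class I, held 6335, 6432, 6663, 7587 and 8668 FPKM in FL and 7566, 8199, 8282, 8925 and 10517 FPKM in HET. FL 5 lay among the HET values and HET 1 among the FL values (log2 fold change 0.29, SE 0.14, limma adjusted p = 0.472, and -0.01 with quantile normalization). After scaling and without FL 5 and HET 1, 6 of the 19 passed, all higher, where 12.3% of all tested genes were called higher, with B2m among them (0.80, limma adjusted p = 0.0139). For B2m that fit leaves out the libraries that cross between the groups. Of 24 further interferon-stimulated genes outside the list, 20 were lower and 4 higher, with a median log2 fold change of -0.12. Parp12, another ADP-ribosyltransferase gene, held 7.86, 7.98, 6.90, 5.29 and 1.83 FPKM in FL and 4.42, 1.76, 2.47, 1.88 and 2.25 FPKM in HET. As for Isg15, FL 5 lay among the low libraries and HET 1 was the highest of HET (log2 fold change -0.91, SE 0.32, limma adjusted p = 0.472). Without FL 5 it passed (-1.202, limma adjusted p = 0.0183), as did 3.14% of all tested genes. After scaling and without FL 5 and HET 1 it fell (-1.06, limma adjusted p = 0.000221), in a fit that leaves out its lowest FL and its highest HET library. In that fit 3 of the 24 passed, all lower, a share near the 13.3% of all tested genes called lower.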

How the data were processed

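The deposited values are FPKM per Ensembl gene, made by the authors and taken as such from the table's name and values. Per the submitters' processing notes, the build was mm10 and the tools were Cufflinks 2.1.1, Bowtie 0.12.9, DESeq2 and HTSeq, whose roles are not stated. Per the labels' protocols, RNA was amplified by the Geo-seq method for small cell numbers, and no molecular identifiers or strand marking are named, so antisense reads cannot be told apart. Depth is unknown and no counting intervals were computed; FPKM sums were 896054 to 1066190 per library.

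All 52096 identifiers matched GENCODE M21. Genes with FPKM of at least 1 in at least 5 libraries were tested on log2(FPKM + 1), which understates changes of low genes, with limma 3.58.1 in R 4.3.3 (trend, robust, genotype only, Benjamini-Hochberg over all tested genes, threshold 0.05). The fit was tested on simulated data. Any 2 libraries shared identical values for 0.767% of tested genes or fewer. Same-numbered libraries were not treated as pairs. Genes with a test are those of each role with the highest mean or the smallest p, the 4 with the largest fold changes, and the smallest p of each pathway list; others are given by level. The members and lists were chosen with earlier results of these data known. Tables and plots used Python 3.11.15, pandas 2.3.3 and matplotlib 3.10.9.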

Additional observations from a re-analysis of the deposited data

Results flagged for a closer look

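In 6 of 74 groups of 5 libraries (36 interferon-stimulated genes and Nup214, in FL and HET), 1 library lay far from the other 4 by Dixon's criterion on the log2(FPKM + 1) scale, and chance alone gives about 1 in 20 groups. FL 5 was far below the other FL libraries for Isg20, at 24.25 FPKM, and for Ifit2, at 6.01 FPKM. HET 1 was far above the other HET libraries for Dhx58, at 14.9 FPKM, and for Parp14, at 10.22 FPKM. FL 2 was high for Xaf1, at 10.86 FPKM, and HET 2 was low for Mx1, at 0.33 FPKM. The cause of these values was not tested.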

How the results depend on the processing

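The count of interferon-stimulated genes that passed was 0 in the full set and in 20 of 24 alternatives; it was 18 with array quality weights (52.7% of all tested genes passed there), 13 without FL 5 and HET 1 together, 4 with scaling and without both, and 3 with scaling and weights. Over all genes the count was 0 as reported, 1 with median-ratio scaling or quantile normalization, 6869 with weights, 5954 without FL 5 and HET 1, and 3344, 2504, 785 and 1 when scaling was combined with leaving out both, with weights, without FL 5 or without HET 1. These 4 combinations were chosen after seeing the data. With single libraries left out the counts ran from 0 to 409 for all genes, highest without FL 5, and were 0 for the list. The median of the list ran from -0.343 with weights to 0.098 with quantile normalization.

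Signs turned, with no adjusted p under 0.05, for these genes. Dhx58 was -0.31 with weights, -0.087 without FL 5, -0.152 without HET 1 and -0.253 without both, and -0.152 to 0.097 over single libraries left out. Irf1 was -0.004 with weights and -0.0 without HET 1 (to 0.202 over single libraries left out). Under median-ratio scaling Ifit2 was 0.076, Ifitm2 0.026, Ifnar2 0.059, Stat2 0.003 and Usp18 0.09. With scaling and without FL 5 they were 0.078, 0.046, 0.085 and 0.049 for Ifit2, Ifitm2, Ifnar2 and Usp18, and with scaling and without HET 1 0.057, 0.096 and 0.055 for Ifit2, Ifitm2 and Ifnar2. With scaling and without both libraries these 3 were 0.059, 0.116 and 0.08, and with scaling and weights 0.056, 0.092 and 0.079. With quantile normalization Ifit2 was 0.105, Stat2 0.032, Usp18 0.124 and B2m -0.012. Usp18 was 0.022 without HET 2, from -0.29 over single libraries left out. The causes were not tested.

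With the replicate number as a block, 0 genes passed, and the median of the list was -0.101; same-numbered libraries correlated at -0.172 to 0.23 in their deviations, 3 of 5 pairs above 0.1, and 5 of 10 libraries correlated best with their own number. Read depth is unknown, which limits what can be said of genes near 1 FPKM such as Mx1, Ifit3 and Ifi204.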
